A study of Homo sapiens with 24 samples.

Results

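The TCF/LEF factors TCF7, TCF7L1, TCF7L2 and LEF1, the Groucho co-repressors TLE1, TLE2, TLE3 and TLE4, and the co-activators BCL9 and PYGO2 were described probe by probe in a colon cancer cell line with an inducible dominant negative form of one of them. All 10 genes, of 27274 gene names on the array, were taken by their symbol, which gave 16 of the 34127 non-control probes. A level is a log2 signal minus the log2 of the array's 75th percentile, taken without control spots. Probes were tested when some treatment had them well above background on each of its 6 arrays. Of the 16 probes, 13 probes of 8 genes were tested, and the probe of LEF1 and both probes of TLE4 were not. A further 6 probes carry a transcript number in place of a gene symbol and are described in the files as TCF7L2, TLE1 or TLE4 sequences. Only 1 of them was tested, a TCF7L2 probe, and it is given beside the members and not counted with them.

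The cells were HCT-116, a human colon carcinoma line, in every group a stably transfected line carrying a Tet repressor and a doxycycline-inducible, FLAG-tagged DN-Tcf4. This protein is Tcf4, the TCF7L2 product, shortened by the domain that binds beta-catenin. The line was cloned and chosen for suppression of Wnt reporter activity under doxycycline, so all samples come from 1 clone. The 4 groups were untreated cells (Ctl), 5 mM sodium butyrate (NaB), 4 μg/ml doxycycline (Doxy), and doxycycline followed by both agents (DoxyNaB), with 17.5 hr of butyrate. Each of 6 experiments, which the methods call biological replicates, gave 1 array of each group, 24 arrays in all, and arrays of the same experiment were compared with each other. The labels do not say that the experiments were separate cultures, so p-values measure the spread between these experiments.

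TCF and LEF proteins bind DNA through an HMG box and have little activity of their own. Without beta-catenin they recruit Groucho proteins, tetramers with a WD40 propeller that bring histone deacetylases to the gene. When Wnt signaling is active, beta-catenin displaces Groucho and recruits BCL9, which in turn holds PYGO2 through its PHD finger. In colon cancer cells with stabilized beta-catenin, TCF7L2 is the main factor of the family, and TCF7 and LEF1 are known as targets of the pathway as well as parts of it.

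Between 52.5% and 88.1% of the spots for genes were well above background on an array, with the higher shares in experiments 2 to 4. The negative controls had their highest mean net signal on the DoxyNaB array of experiment 2 (248.9) and the NaB array of experiment 3 (161.0). In experiment 1 the butyrate arrays were on another slide than the rest and were scanned separately, so slide and butyrate cannot be told apart there. Among 10 markers of colon epithelium, 9 were well above background on all 24 arrays and CDH17 on 2 of them. Among 10 markers of blood, endothelial, stromal and liver cells, CD68 and COL1A1 were above background on all 24 arrays, and the other 8 on 7 to 19 of them. The log2 of their summed signal ran from -0.95 to 0.25 in Ctl, from -0.93 to 0.35 in Doxy, from 0.00 to 1.52 in NaB and from 0.31 to 1.97 in DoxyNaB. That of the colon markers ran from 7.82 to 8.33 in Ctl, from 7.87 to 8.32 in Doxy, from 8.17 to 9.01 in NaB and from 8.08 to 8.63 in DoxyNaB. Both sums ran higher on butyrate arrays, although in each sum both butyrate groups overlapped groups without it. The part of either sum in the butyrate results was not tested.

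The sequences of the TCF7L2 probes are shown first because these probes moved in opposite directions. Coordinates follow the files, whose build is NCBI36, and no annotation of that build was used here to assign a probe to an exon or an intron. All 4 TCF7L2 probes lie on the plus strand of chromosome 10, and they are numbered from 5′ to 3′. The capitals at the end of probe 2 mark GTGAGT, letters with which many introns begin.
TCF7L2 probe 1, chr10:114714311-114714370: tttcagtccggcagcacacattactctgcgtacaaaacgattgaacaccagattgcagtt
TCF7L2 probe 2, chr10:114895793-114895852: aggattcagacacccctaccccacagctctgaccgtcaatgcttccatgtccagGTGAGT
TCF7L2 probe 3, chr10:114901475-114901534: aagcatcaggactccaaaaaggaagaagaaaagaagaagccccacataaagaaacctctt
Probe 2 is the one that carries a transcript number. Probe 4 lies at chr10:114915968-114916027, 201657 bases downstream of probe 1, and is named only.

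The Groucho probes are shown because these proteins are close relatives, and it was not tested whether a probe binds the RNA of another member. Capitals mark bases that are equal in the TLE1 probe and in the probe of TLE2 or TLE4 when their overlapping ends are laid on each other without gaps. All are written 5′ to 3′ along the RNA.
TLE1 3′ probe, minus strand, chr9:83388938-83388997: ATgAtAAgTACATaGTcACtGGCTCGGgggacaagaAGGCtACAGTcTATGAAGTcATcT
TLE2 probe, minus strand, chr19:2948884-2948943: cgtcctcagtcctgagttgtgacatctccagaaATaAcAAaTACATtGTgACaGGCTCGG
TLE4 5′ probe, first 24 bases, plus strand, chr9:81529851-81529874: AGGCcACAGTtTATGAAGTtATtT
The TLE1 and TLE2 probes overlap by 27 bases, of which 21 are equal. The TLE1 and TLE4 probes overlap by 24 bases, of which 20 are equal. Only overlapping ends of probes were compared, and no probe of 60 bases was compared with the RNA of another gene.

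TCF7L2 encodes Tcf4, the factor from which DN-Tcf4 was made. The study checked the induction with an anti-FLAG western blot and a Wnt reporter. In the blot it reported minimal DN-Tcf4 under doxycycline alone and high levels with both agents. The TCF7L2 probes are no such check, since they could not be assigned here to the construct or to the cell's own RNA. With both agents the 3 downstream probes were far higher than in any other group. The probe nearest the 5′ end was lower on average, but its arrays overlapped those of NaB. Its result against NaB stayed the same in only 5 of 18 alternative settings, with changes from -1.44 to -0.10. With doxycycline alone none of the 4 probes passed the test. From Ctl to NaB probes 2 and 4 passed the test, probe 2 narrowly, and the call of probe 4 was lost with normexp, quantile normalization and median scaling.

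At TCF7L2 probe 1 the level ran from -2.79 to -2.09 with a median of -2.71 in Ctl, from -3.39 to -1.93 with a median of -2.47 in NaB, and from -2.57 to -1.36 with a median of -2.23 in Doxy. In DoxyNaB it ran from -4.75 to -2.83 with a median of -3.94, and 4 of the 6 arrays were well above background. The DoxyNaB arrays lay below all Ctl and all Doxy arrays and overlapped the NaB arrays. DoxyNaB was lower than NaB by a log2 change of -1.25 ± 0.65 (SD over 6 experiments, lower in 6 of 6, adjusted p = 0.00569 from limma with Benjamini-Hochberg adjustment over all probes), and lower than Doxy by -1.70 ± 0.63 (adjusted p = 8.08e-06). Both calls depend on the background correction, and that against NaB was also lost without the experiment as a block (adjusted p = 0.0239) and on leaving out experiment 1, 3, 4, 5 or 6 (adjusted p from 0.0102 to 0.0468). With normexp background correction the change against NaB was -0.10 (adjusted p = 0.816) and that against Doxy -0.37 (adjusted p = 0.157).

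At TCF7L2 probe 2 the level ran from 0.19 to 1.42 in Ctl (median 0.32), from 1.04 to 2.74 in NaB (median 1.52) and from 0.10 to 1.54 in Doxy (median 0.45). The DoxyNaB arrays ran from 4.05 to 6.28 with a median of 4.57, above every array of the other groups. The array of experiment 1 was the highest in each of the 4 groups. DoxyNaB exceeded NaB by 3.22 ± 0.45 (9.33-fold, 6 of 6, adjusted p = 1.19e-10) and Doxy by 4.23 ± 0.33 (18.8-fold, 6 of 6, adjusted p = 2.6e-14). NaB exceeded Ctl by 1.06 ± 0.38 (2.08-fold, 6 of 6, adjusted p = 2.64e-06), although the groups overlap because of experiment 1. That fold lies just past the threshold of 2 and came to 0.98 in log2 units with the slide or the scan as block, and to 0.31 (adjusted p = 0.234) when arrays were scaled to their median.

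At TCF7L2 probe 3 the level ran from -4.11 to -1.57 in Ctl (median -1.86), from -2.75 to -0.29 in NaB (median -1.49) and from -3.59 to -1.50 in Doxy (median -2.64). In DoxyNaB it ran from 0.54 to 1.92 with a median of 1.49, again above all arrays of the other groups. The Ctl arrays of experiments 1 and 5, at -4.11 and -3.86, lay below the other 4 Ctl arrays. DoxyNaB exceeded NaB by 2.96 ± 0.88 (7.80-fold, 6 of 6, adjusted p = 3.65e-05) and Doxy by 4.04 ± 0.69 (16.5-fold, adjusted p = 1.07e-08). The difference of 0.91 ± 0.98 between NaB and Ctl was seen in 5 of 6 experiments and had an adjusted p of 0.0294.

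At TCF7L2 probe 4 the level ran from -6.45 to -4.36 in Ctl (median -5.79), from -4.85 to -2.61 in NaB (median -3.65), and from -7.25 to -4.41 in Doxy (median -5.15). These low levels are uncertain, because 1 of 6 Ctl arrays, 3 of 6 NaB arrays and 3 of 6 Doxy arrays were well above background. All 6 DoxyNaB arrays were above background, from -0.60 to 1.63 with a median of 0.59. The probe was tested only because it passed in DoxyNaB, so a difference from that group is no independent result, and its size rests in part on values at background. DoxyNaB exceeded NaB by 4.46 ± 0.52 (6 of 6, adjusted p = 1.77e-06), and by 2.96 with normexp, and exceeded Doxy by 6.06 ± 1.44 (6 of 6, adjusted p = 2.9e-10). The NaB arrays exceeded the Ctl arrays of their experiments by 1.90 ± 1.10 (6 of 6, adjusted p = 0.000468). That change came to 0.23 with normexp (adjusted p = 0.652), to 0.54 with quantile normalization (adjusted p = 0.369) and to 1.15 when scaled by the median (adjusted p = 0.0207).

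**Figure D1:**
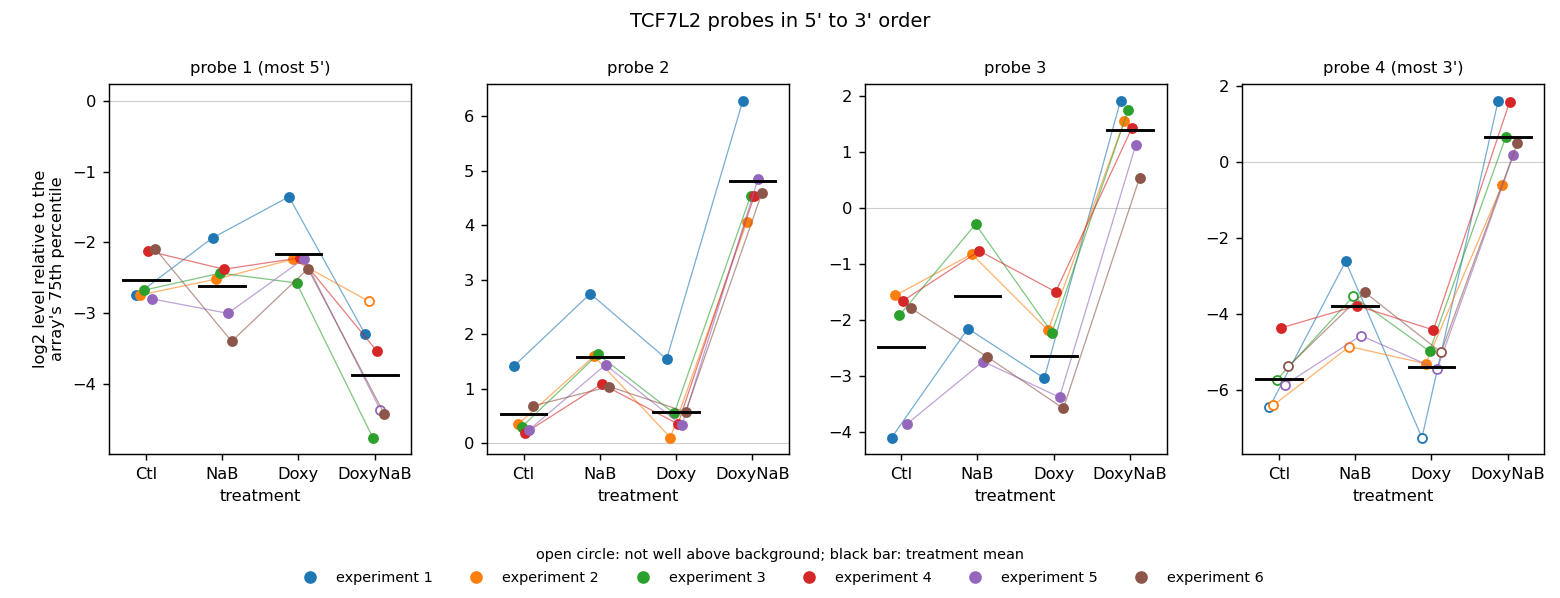
Level (log2, relative to the 75th percentile of the array) of the 4 TCF7L2 probes in each treatment; a colour is 1 of 6 experiments, a black bar is the treatment mean, and an open circle is an array where the probe was not well above background. At probes 2, 3 and 4 all 6 DoxyNaB arrays lie above all arrays of the other treatments, and at probe 1 they lie below all Ctl and Doxy arrays.

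Between Doxy and Ctl the log2 change was 0.36 ± 0.60 at probe 1, 0.04 ± 0.18 at probe 2, -0.17 ± 0.99 at probe 3 and 0.30 ± 0.66 at probe 4, with adjusted p from 0.618 to 0.953. These differences were within the spread between experiments. The interaction, which is the change from Ctl to NaB less the change from Doxy to DoxyNaB, was -3.18 ± 0.41 at probe 2 (adjusted p = 5.52e-08), -3.13 ± 1.04 at probe 3 (adjusted p = 0.00148) and -4.16 ± 0.92 at probe 4 (adjusted p = 0.000431). Each was below 0 in 6 of 6 experiments. Probe 4 was tested only because it passed in DoxyNaB, and its lower values are in part at background. Its interaction is therefore no independent result. At probe 1 it was 1.62 ± 0.86 in the other direction, with an adjusted p of 0.0196 that misses the threshold of 0.01. With normexp the TCF7L2 probe 1 value was 0.26 (adjusted p = 0.711). When the NaB array of experiment 3 and the DoxyNaB array of experiment 2, which have the highest negative controls, were left out, it was 1.71 (adjusted p = 0.00462). The construct's sequence was not used here, so a probe cannot be assigned to the construct or to the cell's own TCF7L2 RNA.

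The ends of a gene were compared by an exact two-sided sign-flip test on the 6 experiments, which can give no p below 0.03125. The change from NaB to DoxyNaB at TCF7L2 probe 1 was lower than that at probe 4 by 5.71 ± 0.83, in 6 of 6 experiments (exact p = 0.03125, adjusted p = 0.0833 over 8 such tests in 4 genes), and by 3.06 with normexp (adjusted p = 0.25). Only 3 of the 6 NaB arrays and 1 of the 6 Ctl arrays had TCF7L2 probe 4 above background, so these differences rest in part on values at background. That probe was tested only because it passed in DoxyNaB, so its difference from that group is no independent result. The change from Ctl to NaB was lower by 1.98 ± 0.97 (exact p = 0.03125, adjusted p = 0.0833), and by 0.35 with normexp. With 3 of the 8 tests at the smallest p, their adjusted p could not be lower than 0.0833.

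TCF7 encodes Tcf1. The array has 2 probes for it, both on the plus strand of chromosome 5, from 133506407 to 133506466 and from 133511136 to 133511195. The 3′ probe is printed in 10 spots and is the most precise of the members. Its level was lower in DoxyNaB than in each of the other groups, by less than 2-fold. It ran from -0.62 to 0.04 in Ctl (median -0.49), from -0.74 to -0.07 in NaB (median -0.56), from -0.69 to -0.04 in Doxy (median -0.56), and from -1.29 to -0.59 in DoxyNaB (median -1.09). The groups overlap because the arrays of experiment 1 were the highest of each group. Within experiments DoxyNaB was lower than NaB by -0.51 ± 0.11 (6 of 6, adjusted p = 6.28e-05) and lower than Doxy by -0.52 ± 0.15 (6 of 6, adjusted p = 8.44e-07).

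Between NaB and Ctl the same TCF7 probe differed by -0.08 ± 0.10 (adjusted p = 0.261), and between Doxy and Ctl by -0.07 ± 0.13 (adjusted p = 0.765). Over the alternative settings the change from Ctl to NaB ran from -0.83 to -0.04, with adjusted p of limma or the t-test from 0.00115 to 0.826. A lack of change with butyrate alone therefore depends on the processing. The interaction was 0.44 ± 0.09, positive in 6 of 6 experiments, with an adjusted p of 0.0119. The change from NaB to DoxyNaB kept its sign under the other scalings, but its adjusted p was 0.219 with normexp, 0.027 with quantile normalization and 1.0 after scaling by the median. Without the experiment as a block it was 0.0925. At the 5′ probe no comparison passed the test. Its change from NaB to DoxyNaB was -0.31 ± 0.45 (5 of 6 lower, adjusted p = 0.289).

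TCF7L1, which encodes Tcf3, a family member known mainly as a repressor, had 1 probe on chromosome 2 (85390189 to 85390248, plus strand), well above background on all 24 arrays. Its median level was -1.03 in Ctl, -0.91 in NaB, -0.97 in Doxy and -1.19 in DoxyNaB, and over all arrays it ran from -1.45 to -0.64. No pair of treatments was separated. Its largest difference between a pair of groups, -0.24 ± 0.29 from NaB to DoxyNaB, had an adjusted p of 0.33.

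LEF1, which in normal colon is barely expressed and in many colon cancers appears as a Wnt target, was dim. Its probe on chromosome 4 (109188195 to 109188254, minus strand) was well above background on 1 Ctl array, 2 NaB arrays, 2 Doxy arrays and 1 DoxyNaB array, the last with an outlier flag and therefore without a level. Levels ran from -6.83 to -4.69 in Ctl, from -6.54 to -3.37 in NaB, from -7.06 to -4.26 in Doxy and from -5.89 to -4.55 in DoxyNaB. The NaB array was higher than the Ctl array in 6 of 6 experiments, by 0.09 to 2.24, but for 4 of these pairs both values were below the limit for background, so no fold is given.

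Among the co-repressors, TLE2 had the steadiest difference. Its level ran from -0.33 to 0.59 in Ctl (median -0.25), from -0.87 to -0.25 in NaB (median -0.75), from -0.46 to 0.58 in Doxy (median -0.27) and from -0.99 to -0.23 in DoxyNaB (median -0.88). In each group the array of experiment 1 was the highest, and apart from that experiment the butyrate arrays lay below the others. With butyrate it was lower by -0.58 ± 0.15 without doxycycline (6 of 6, adjusted p = 4.54e-07) and by -0.60 ± 0.13 with it (6 of 6, adjusted p = 2.72e-07), in both cases less than 2-fold. The difference between these responses was 0.02 ± 0.09 (adjusted p = 0.951). With scaling to the median the changes were -1.32 and -1.16 and passed the fold threshold. Between arrays with and without doxycycline the difference was within the spread, with -0.04 ± 0.13 against Ctl and -0.06 ± 0.12 between DoxyNaB and NaB.

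TLE1 had its 3′ probe at a median of 0.12 in Ctl, 0.43 in NaB, 0.16 in Doxy and 0.50 in DoxyNaB. The groups overlapped, and the change with butyrate was 0.24 ± 0.24 (6 of 6, adjusted p = 0.0261), which turned to -0.51 when scaled by the median. Against Ctl the DoxyNaB arrays were higher by 0.31 ± 0.23 (6 of 6, adjusted p = 0.00659). Scaled to the median, this value turned to -0.34 (adjusted p = 0.0793). The 5′ probe (minus strand of chromosome 9, 83414969 to 83415028) ran from -2.45 to -1.78 on 5 Ctl arrays, and the Ctl array of experiment 5 stood at -0.46. Of its comparisons none passed. The SD of the change over experiments was 0.80 to 0.88 against Ctl, and 0.14 to 0.17 in the comparisons without that array.

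TLE3 had 1 probe on the minus strand of chromosome 15, from 68128250 to 68128309. Its median level was -1.11 in Ctl, -0.93 in NaB, -1.17 in Doxy and -1.24 in DoxyNaB. The groups overlapped in all comparisons, and the adjusted p ran from 0.399 to 0.957.

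TLE4 could not be tested, since its 5′ probe was well above background on 10 of the 24 arrays and its 3′ probe, on chromosome 9 from 81530877 to 81530936, on 12 of them. All of these arrays belong to experiments 2 to 4, the third scan, where the share of spots above background was also higher. On the other arrays the 3′ probe ran from -7.38 to -5.23. Within experiments 2, 3 and 4, where the 3′ probe was above background on every array, NaB exceeded Ctl by 1.41, 3.77 and 2.62 log2 units, and DoxyNaB exceeded Doxy by 2.79, 0.67 and 1.06. The 5′ probe gave NaB values above Ctl by 0.91 in experiment 2 and 3.07 in experiment 4, and in experiment 3 its Ctl array was not above background. The arrays with the highest negative controls are among these, NaB of experiment 3 and DoxyNaB of experiment 2. Negative controls were also raised on NaB of experiments 2 (114.6) and 4 (112.1) and on DoxyNaB of experiment 4 (110.9). On the Ctl and Doxy arrays of experiments 2 to 4 they ran from 63.1 to 79.6, and DoxyNaB of experiment 3 stood at 69.1. The part of the negative controls in the TLE4 values was not tested.

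**Figure D2:**
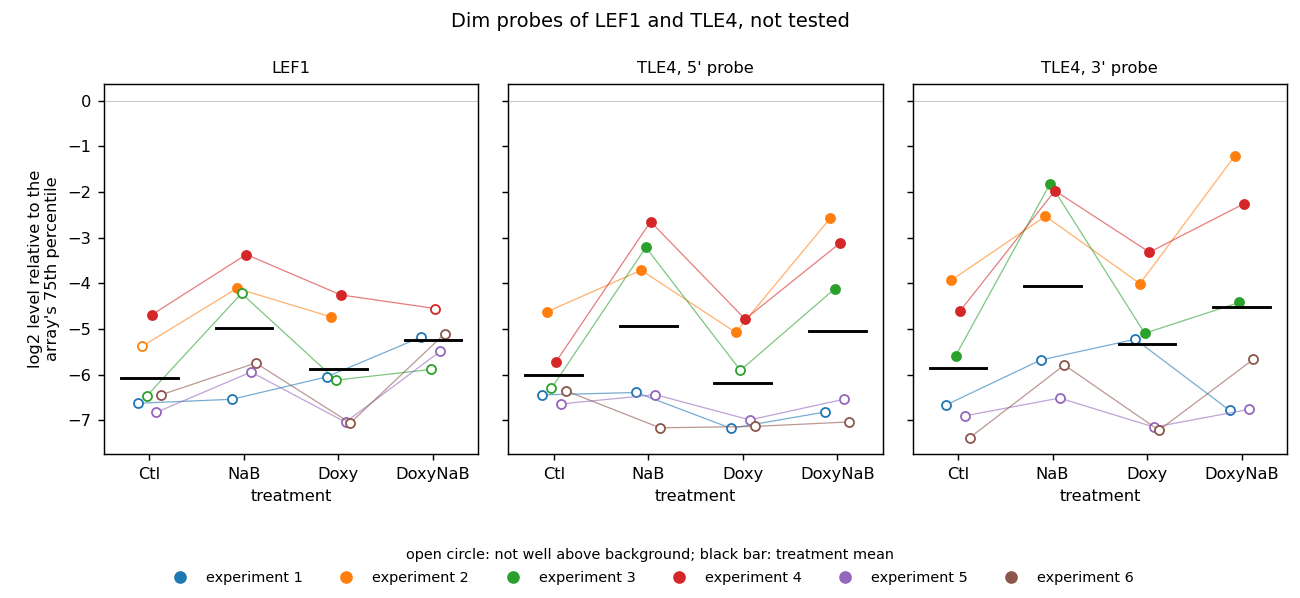
Level (log2, relative to the 75th percentile of the array) of the LEF1 probe and both TLE4 probes in each treatment; a colour is 1 of 6 experiments, a black bar is the treatment mean, and open circles were not well above background. The filled circles of TLE4 belong to experiments 2, 3 and 4, and most LEF1 values are open.

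BCL9 bridges beta-catenin and PYGO2. Its probe on the plus strand of chromosome 1, from 145563892 to 145563951, ran from -3.14 to -2.66 in Ctl (median -2.88), from -2.39 to -1.95 in NaB (median -2.14), from -3.29 to -2.75 in Doxy (median -2.96) and from -2.87 to -1.61 in DoxyNaB (median -1.98). All NaB arrays lay above all Ctl arrays. The change was 0.74 ± 0.17 (1.67-fold, 6 of 6, adjusted p = 9.85e-05), and with doxycycline present it was 0.80 ± 0.54 (6 of 6, adjusted p = 4.3e-05). This direction depends on the scaling. The change from Ctl to NaB was 0.28 with normexp (adjusted p = 0.177), -0.21 with quantile normalization (adjusted p = 0.666) and -0.01 when scaled by the median (adjusted p = 0.982), and under doxycycline it was 0.04 and 0.25 with the last 2 settings.

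PYGO2, the PHD finger protein that BCL9 binds, had 2 probes on the minus strand of chromosome 1, and they differed. At the 5′ probe (153197922 to 153197981) the median was -2.56 in Ctl and -2.10 in NaB, a change of 0.41 ± 0.24 (5 of 6 higher, adjusted p = 0.0328) that turned to -0.34 with quantile normalization and when scaled by the median. At the 3′ probe (153196299 to 153196358) the median was -0.72 in Ctl and -0.97 in NaB, a change of -0.32 ± 0.22 (5 of 6 lower, adjusted p = 0.0314). The 5′ change exceeded the 3′ change by 0.73 ± 0.42 in 6 of 6 experiments (exact sign-flip test, p = 0.03125, adjusted p = 0.0833), and by 0.38 with normexp. Neither probe passed on its own in these comparisons. Against Ctl the 5′ probe was higher in DoxyNaB by 0.54 ± 0.53 (5 of 6, adjusted p = 0.00716). Scaled to the median, it turned to -0.11.

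**Figure D3:**
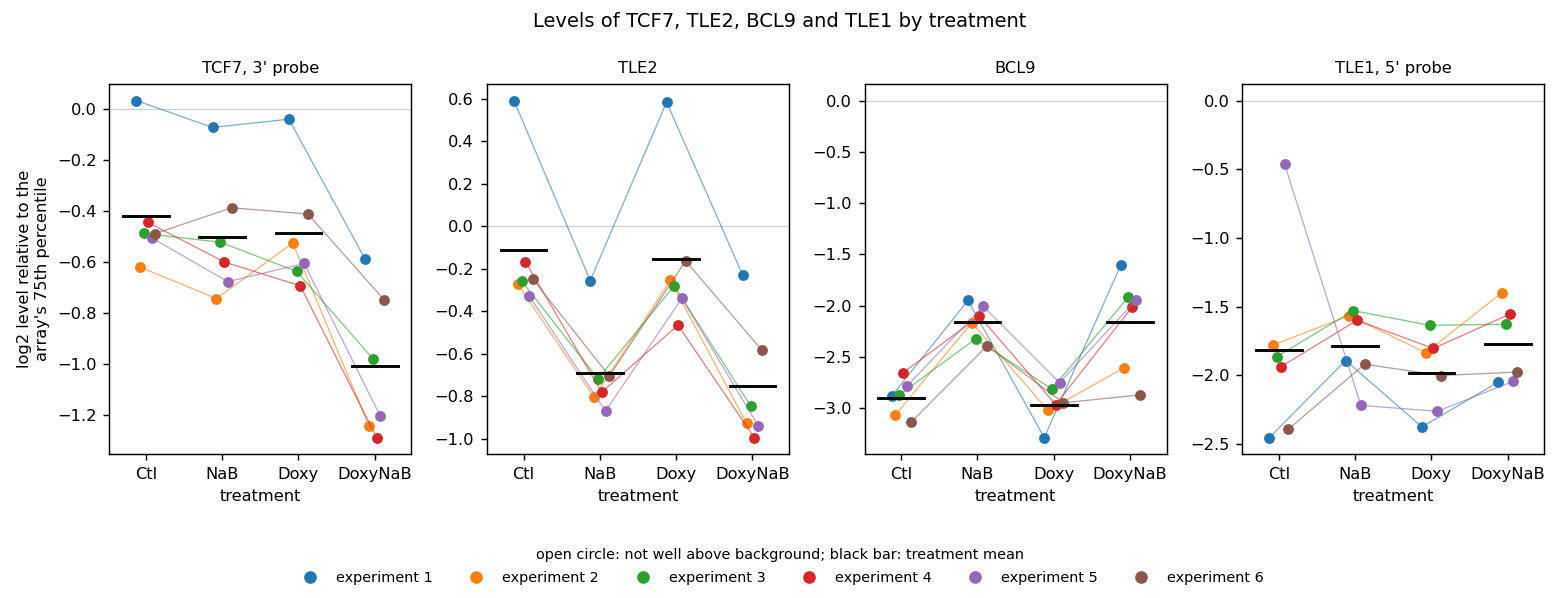
Level (log2, relative to the 75th percentile of the array) of the TCF7 3′ probe, TLE2, BCL9 and the TLE1 5′ probe in each treatment; a colour is 1 of 6 experiments and a black bar is the treatment mean. TCF7 is lowest in DoxyNaB in each experiment, TLE2 is lower and BCL9 higher on the butyrate arrays than on their partners without butyrate, and 1 TLE1 array stands at -0.46 in Ctl.

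Counted over the 13 tested member probes at a fold over 2 and an adjusted p under 0.01, 1 member was called from Ctl to NaB, TCF7L2 probe 4, where 31.7% of all 18979 tested probes were called. That probe was above background on 1 Ctl and 3 NaB arrays and was tested through DoxyNaB, which is outside the comparison. Under doxycycline butyrate changed 3 probes, all of TCF7L2 (2 higher, 1 lower), beside 30.6% of all probes. Neither count is a larger share than that of all probes. Doxycycline alone changed 0 members by limma, beside 0.0948% of all probes. It also changed 0 at an unadjusted limma p under 0.05, and 0 by the methods' t-test with adjusted p. Between DoxyNaB and NaB 3 members were called, again of TCF7L2, beside 0.374% of all probes, and TCF7 was the only further gene past an adjusted p of 0.01. In the interaction 2 were called, TCF7L2 probes 3 and 4, beside 1.24%. TCF7L2 probe 4 was among the calls in each comparison that holds DoxyNaB, the group through which it was tested.

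Against Ctl, DoxyNaB changed 3 members of the 13, TCF7L2 probes 1, 3 and 4, beside 32.4% of all probes. By direction, 20.7% of all probes were called higher from Ctl to NaB, 18.3% higher and 12.3% lower from Doxy to DoxyNaB, 0.126% higher and 0.248% lower from NaB to DoxyNaB, 20.2% higher and 12.2% lower from Ctl to DoxyNaB, and 0.216% lower in the interaction. At an adjusted p under 0.01 with any fold, 3 of the 13 members passed from Ctl to NaB beside 68.2% of all probes, and 6 passed from Doxy to DoxyNaB beside 67%. On the same criterion 4 passed from NaB to DoxyNaB beside 2.48%, 8 from Ctl to DoxyNaB beside 67.9%, and 0 from Ctl to Doxy beside 0.501%. The median change of the tested members from Ctl to NaB was 0.14, beside 0.17 over all tested probes, and from NaB to DoxyNaB it was -0.004 beside -0.03. The comparisons share groups, NaB/Ctl with DoxyNaB/Ctl and DoxyNaB/NaB with DoxyNaB/Doxy, so their counts are not independent of each other. In cell populations an array cannot tell fewer cells with a transcript from less of it per cell.

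**Figure D4:**
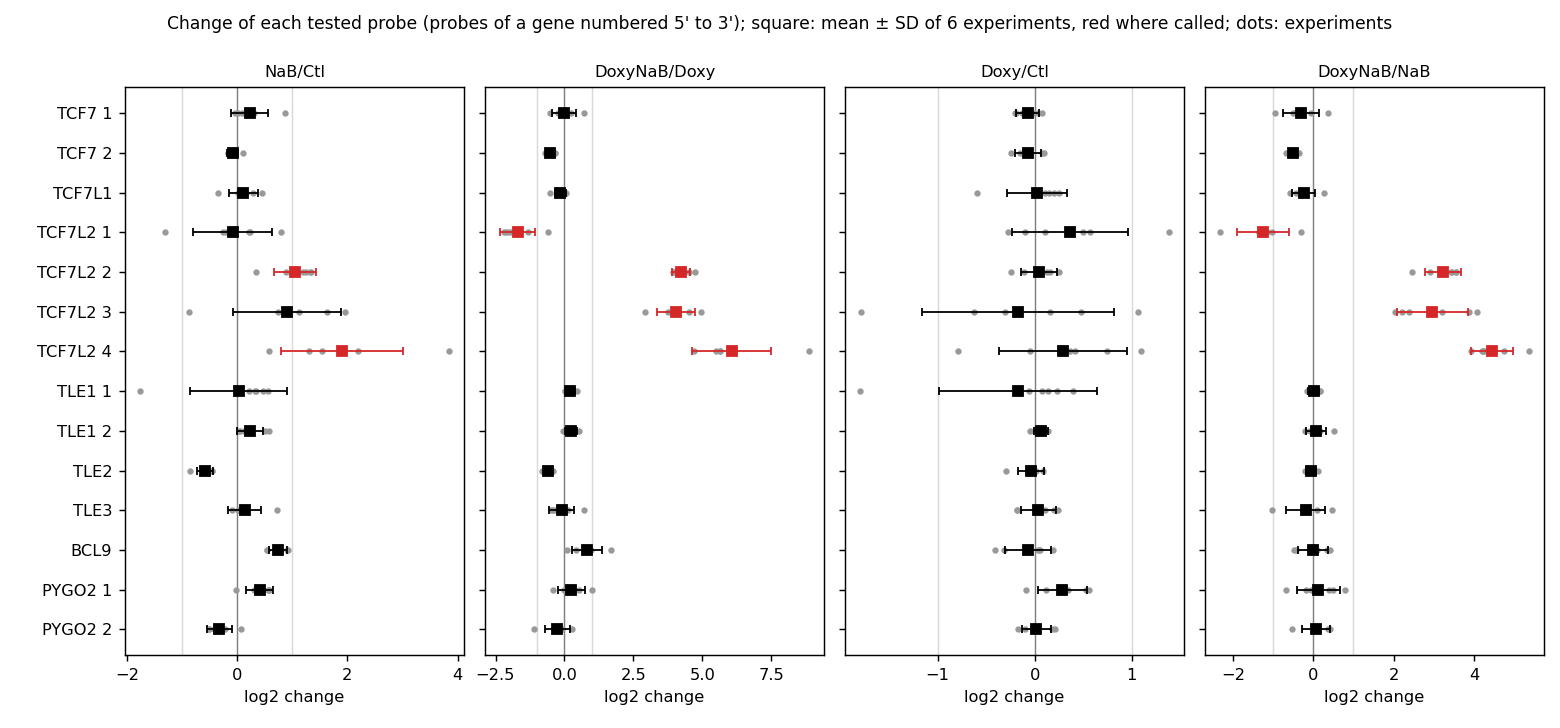
Log2 change of each tested probe in 4 comparisons; a square with bar is the mean ± SD of 6 experiments, red where called at a fold over 2 and an adjusted p under 0.01, and grey dots are the experiments. The panels have axes of different length. All red squares belong to TCF7L2, and the panel of doxycycline alone has none.

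**Figure D5:**
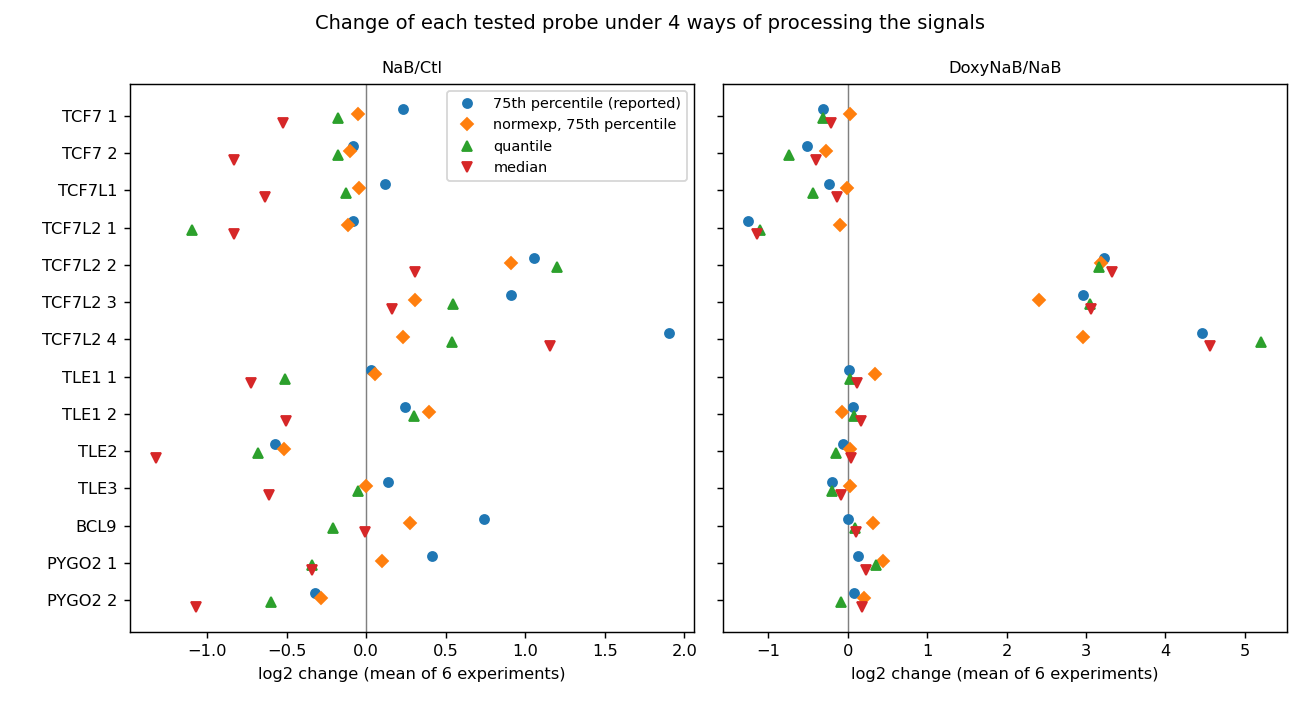
Log2 change of each tested probe from Ctl to NaB and from NaB to DoxyNaB under 4 ways of processing the signals; probes of a gene are numbered from 5′ to 3′ and each mark is the mean of 6 experiments. In the change from Ctl to NaB the marks of BCL9 lie on both sides of 0, those of TLE2 all lie below it, and in the change from NaB to DoxyNaB TCF7L2 probes 2, 3 and 4 stay above 2.

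The nuclear partners of TCF and Groucho proteins, a list of 36 genes with 1 probe each, were counted for comparison. With butyrate alone 2 of the 34 tested were called higher and 6 lower, beside 20.7% of all probes called higher and 31.7% called in either direction. Under doxycycline 1 was called higher and 7 lower, beside 18.3% of all probes higher, 12.3% lower and 30.6% in either direction. Between Doxy and Ctl 0 were called, beside 0.0948% of all probes, and between DoxyNaB and NaB 0, beside 0.374%. Scaled by the median, these counts were 0 higher and 18 lower with butyrate alone, and 0 higher and 14 lower under doxycycline. In that scaling 7769 and 6999 of all 18979 tested probes were called, of which 1640 and 1749 were higher. The median change from Ctl to NaB over the 34 was -0.36, beside 0.17 over all tested probes, and scaled by the median it was -1.11 beside -0.58. AES, a short Groucho relative without the WD40 part, fell by 2.71 ± 0.28 on the log2 scale (6 of 6, adjusted p = 8.73e-14), and under doxycycline fell by 2.60 ± 0.29. TBL1XR1, which couples nuclear receptor co-repressors to deacetylases and binds beta-catenin, fell by 2.01 ± 0.38 (adjusted p = 2.69e-10). The CtBP co-repressors fell as well, CTBP2 by 1.45 ± 0.11 and CTBP1 by 1.15 ± 0.12.

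Also lower were SMARCA4, the ATPase of the SWI/SNF remodeller that beta-catenin recruits, by 1.12 ± 0.32, and XIAP, a ubiquitin ligase that acts on Groucho, by 1.10 ± 0.22. HIPK2, a kinase of TCF proteins, changed by -1.34 ± 0.26 under doxycycline, which was called, and by -0.87 ± 0.12 without it, which was under the fold threshold. With quantile normalization and when scaled by the median it was called without doxycycline too (-1.26 and -1.62), and with normexp in neither case (-0.78 and -0.67). TLE6, a divergent Groucho relative, rose by 1.26 ± 0.10 (adjusted p = 4.08e-12), and NLK, a kinase that phosphorylates TCF proteins, rose by 1.03 ± 0.27 (adjusted p = 4.72e-09). AES, CTBP2 and TBL1XR1 were called lower in both butyrate comparisons under normexp, quantile normalization and scaling to the median. In the change from Ctl to NaB, the call of TLE6 was lost with normexp and scaling to the median, that of NLK with all 3 settings, that of SMARCA4 with normexp and quantile normalization, that of XIAP with normexp and that of CTBP1 with quantile normalization, while their directions stayed. The only interaction called in the list was KLF4, with 0.80 ± 0.13 (6 of 6, adjusted p = 8.63e-05), and 0 were called under the other scalings. Over all tested probes 1.24% were called in the interaction.

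The profiles most like a member were sought over the 24 arrays after the mean of each experiment was taken off, as a description across arrays that share the same 4 treatments and the same scaling. For the TCF7 3′ probe they were SOX4 (Pearson r = 0.929), AMOTL2 (0.929) and SREBF1 (0.925). SOX4 differed by -0.61 between NaB and DoxyNaB, AMOTL2 by -1.27 and SREBF1 by -0.88. For TCF7L2 probe 4 they were a probe named BG188151 (0.959), PIM3 (0.942) and ARID3B (0.938), which differed by 0.90, 0.64 and 1.03 in the same comparison. TCF7L2 probe 4 was above background on 13 of the 24 arrays. Probes picked for a like profile share its steps between treatments, so these differences are no independent result, here or for TCF7. For TCF7L1 they were PARP1 (0.856), SNTB2 (0.828) and GPM6B (0.821). LEF1 was not tested and has none.

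RefSeq promoters of the 10 genes, 17 windows of GRCh38.p14 from 250 bases before to 50 after a start, were searched on both strands for CTTTGAT and CTTTGAA, forms of the TCF/LEF core site. CTTTGAT was in 0 of the 17 windows and in 2.62% of all 35116, and CTTTGAA in 1 window of TLE4 and in 4.43% of all. A match is a run of letters, and its absence from these windows says nothing of sites elsewhere.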

How the data were processed

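The deposited files hold spot intensities of 24 one-colour Agilent arrays. Per the file headers, Feature Extraction 9.5.3.1 had removed background and spatial trend within the array, and nothing scaled arrays to each other. The authors used GeneSpring. Left out were control spots and the 359 to 795 outlier-flagged spots of each array. Replicate spots of a probe were averaged, and the 75th percentile of each array was taken off the log2 signal. The flags in the deposited files (well above background, outlier, saturated) take no unit. At most 3 spots of an array were saturated, and the number of arrays limits the precision.

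A limma 3.58.1 fit (lmFit, eBayes, R 4.3.3) of all 24 arrays had the treatment and, as a block, the experiment, since the submitters' methods name a paired test. Benjamini-Hochberg adjustment ran over 18979 probes, and a call needed a fold over 2 and an adjusted p under 0.01 (interaction: adjusted p only). The step was tested on simulated data. Deviations from the treatment means correlated within an experiment with r from 0.219 to 0.853, except for 1 pair (-0.224, experiment 3); experiments 2 to 6 each shared a slide. Alternatives were normexp (offset 50), quantile and median scaling (floor of 5), other filters, blocks, samples, thresholds, the methods' t-test and leaving out experiments. Figures and sequences used Python 3.11.15, pandas 2.3.3 and matplotlib 3.10.9. Named genes were all probes of the 10 members, called genes of the partner list, and the 3 most alike profiles. The members and lists were chosen with earlier results of these data known.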

Additional observations from a re-analysis of the deposited data

Results flagged for a closer look

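In 14 of 56 groups of 6 arrays 1 array stood apart from the other 5 by Dixon's criterion, which chance meets in about 1 of 20 groups, and 12 of the 14 were arrays of experiment 1. For TLE2 these were Ctl at 0.59, NaB at -0.25 and Doxy at 0.58. For TCF7L2 probe 2 they were NaB at 2.74, Doxy at 1.54 and DoxyNaB at 6.28. For TCF7L2 probe 1 it was Doxy at -1.36, and for probe 4 Doxy at -7.25. For the PYGO2 3′ probe they were Ctl at -0.0063 and Doxy at -0.11, for the TCF7 3′ probe Ctl at 0.035, and for TLE3 Doxy at -0.72. The others were the PYGO2 5′ probe in Ctl of experiment 3, at -2.24, and the TLE1 5′ probe in Ctl of experiment 5, at -0.46.

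The response to butyrate differed with and without doxycycline at TCF7L2 probe 2 (interaction -3.18) and probe 3 (-3.13), by the limma test of the interaction. The call of probe 3 was lost in several of the settings given below. Probe 4 (-4.16) was called too, but it was tested only because it passed in DoxyNaB. Its lower values are in part at background, so its interaction is no independent result.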

How the results depend on the processing

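Scaling to the median moved the median change of all probes from Ctl to NaB by -0.75, and quantile normalization moved it by -0.21; 21.1% and 47.7% of the calls were then higher, and 53.2% with normexp. Directions turned for BCL9 with quantile normalization (-0.21 from Ctl to NaB, -0.11 from Ctl to DoxyNaB) and with scaling to the median (-0.0068 from Ctl to NaB). With scaling to the median they also turned from Ctl to NaB for TLE3 (-0.61), TCF7L1 (-0.63) and the TCF7 5′ probe (-0.52), and from Ctl to DoxyNaB for the PYGO2 5′ probe (-0.11) and the TLE1 3′ probe (-0.34). Values that had no adjusted p under 0.01 on either side also turned with that scaling, from Ctl to NaB for the TLE1 5′ probe (-0.72), the TLE1 3′ probe (-0.51) and the PYGO2 5′ probe (-0.34), from Ctl to DoxyNaB for the TLE1 5′ probe (-0.61), and from Doxy to DoxyNaB for these probes (-0.35, -0.32 and -0.31). With quantile normalization the changes from Ctl to NaB of the TLE1 5′ probe (-0.51), the PYGO2 5′ probe (-0.34), the TCF7 5′ probe (-0.18), TCF7L1 (-0.12) and TLE3 (-0.05) turned as well, and with normexp those of the TCF7 5′ probe (-0.05) and TCF7L1 (-0.04). The cause was not tested.

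Of 13 members, the 1 called from Ctl to NaB became 0 with normexp, with a filter on all 24 arrays and by the methods' t-test with adjusted p, 2 with scaling to the median or a fold over 1.5, and 3 with no filter, with experiments 2 to 4 only or with no fold threshold. The call of TCF7L2 probe 4 itself was also lost with quantile normalization and with scaling to the median. The 3 called from Doxy to DoxyNaB became 1 with the filter on all 24 arrays, 5 with scaling to the median or a fold over 1.5, and 6 with no fold threshold. The 3 called from Ctl to DoxyNaB became 1 with that filter, 5 with scaling to the median, 6 with a fold over 1.5 and 8 with no fold threshold. Scaled to the median, 7769 of all 18979 tested probes were called from Ctl to NaB, 6999 from Doxy to DoxyNaB and 7476 from Ctl to DoxyNaB. With normexp 3001 were called from Ctl to NaB. The 3 called from NaB to DoxyNaB became 1 with that filter, by the t-test with adjusted p, and in experiments 2 to 4 or 5 and 6 alone. The 2 interactions became 0 by the t-test with adjusted p and within either scan, and 4 at an adjusted p under 0.05. Calls at the unadjusted p of the t-test, as the methods name it, were not counted. The settings that keep only some experiments, and the one without 2 arrays, were chosen after seeing the data.

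Without the replicate block 1 interaction was called, since TCF7L2 probe 3 had an adjusted p of 0.0339, and the call of probe 1 from NaB to DoxyNaB was lost (adjusted p = 0.0239). No other call at a fold over 2 changed without the block, and the TCF7 3′ probe, under that fold, had an adjusted p of 0.0925 from NaB to DoxyNaB, with 0.0199 by the t-test and 0.0156 when only the arrays compared were fitted. Leaving out each experiment in turn gave 1 to 2 calls from Ctl to NaB, 2 to 3 from NaB to DoxyNaB and 1 to 2 interactions. Without experiment 2 or 5 the interaction at TCF7L2 probe 3 was lost (adjusted p = 0.0103 and 0.0133), and without experiment 6 its change from Ctl to NaB was called (1.27, adjusted p = 0.00427). The probe 1 call from NaB to DoxyNaB was lost without experiment 1, 3, 4, 5 or 6. Dim probes, LEF1 and TLE4 above all, limit what can be read.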
